A study of Mus musculus with 16 samples.

Results

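The immunity-related GTPases are a family of interferon-induced proteins of the mouse, and 6 of their genes are described here: Irgm1, Irgm2, Igtp, Iigp1, Tgtp1 and Tgtp2. They were chosen by symbol, and all 6 were present among the 18480 entries of each deposited table, on 1 row each. RNA was extracted with Trizol from subcutaneous tumours of MC38, a colon carcinoma line of the mouse. The 16 libraries fall into 4 groups of 4. These are exercise with anti-PDL1, called the combination here, anti-PDL1 alone, written anti-PD-L1 below, exercise alone, and control. The labels name anti-PDL1 while the series title names PD-1, so the target is given as labelled. PD-L1 is a ligand that restrains T cells through its receptor PD-1, and the question put to these genes is how far their RNA changes with antibody and with exercise. The labels give no strain, sex or age of the mice, no exercise protocol or antibody dose, and no treatment of the controls beyond the name. No label ties a library to an animal. P-values therefore speak to the spread among the 16 samples alone, and part of that spread may be technical.

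Immunity-related GTPases fall into regulators and effectors. Irgm1, Irgm2 and Igtp (also named Irgm3) are the regulators, which sit on the cell's own membranes and keep the effectors in their inactive, GDP-bound form there. Iigp1 (Irga6), Tgtp1 (Irgb6) and Tgtp2, a close copy of Tgtp1, are effectors, which gather on vacuoles that hold parasites such as Toxoplasma or bacteria such as Chlamydia and break them open. Interferon gamma, made by T cells and natural killer cells, induces the family in many cell types through gamma activated sites and through the interferon-stimulated response element, which interferon regulatory factors such as Irf1 bind.

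Levels are given as FPKM, which count fragments per length of transcript and per size of the library. Their sums lay between 478672 and 529732 per library, and between 11293 and 11873 entries reached 1 FPKM. Read numbers cannot be had from FPKM, so sequencing depth is unknown and counting error is not stated. Controls 1 and 2 stood apart, at -30.8 and -41.4 on the first principal component (30.1% of the variance), where the other libraries lay between -17.0 and 26.3. The epithelial markers Epcam, Krt8, Krt18 and Cdh1 summed to between 1.37 and 3.32 FPKM over the libraries, nearly all of it Cdh1 at 1.24 to 3.05 FPKM. Epcam, Krt8 and Krt18 each measured at most 0.2 FPKM, and Krt18 was at 0 in all 4 combination libraries. The 6 immunity-related GTPase genes summed to between 32.0 and 646 FPKM, that is between 0.00643% and 0.131% of a library.

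Promoter sequences are shown because most of these genes hold the same pair of interferon motifs, in the same order, close to their start of transcription. RefSeq promoters on GRCm38.p6 were matched for 5 of the 6 genes, the 5 that lie on chromosome 11. Each line below gives a window of 69 bases, 5′ to 3′ on the strand of the gene. Capitals mark matches to the gamma activated site, TTCNNNGAA, and to the core of the interferon response element, GAAANNGAA, searched on both strands.
Irgm1 (chr11:48871422-48871490, minus strand): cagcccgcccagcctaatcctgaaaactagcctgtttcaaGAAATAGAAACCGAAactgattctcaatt
Irgm2 (chr11:58214873-58214941, plus strand): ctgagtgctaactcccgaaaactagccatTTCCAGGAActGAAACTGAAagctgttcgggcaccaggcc
Igtp (chr11:58199482-58199550, plus strand): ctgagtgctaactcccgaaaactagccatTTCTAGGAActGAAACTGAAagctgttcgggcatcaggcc
Tgtp1 (chr11:48992295-48992363, minus strand): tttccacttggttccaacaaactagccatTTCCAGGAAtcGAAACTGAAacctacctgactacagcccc
Tgtp2 (chr11:49064254-49064322, minus strand): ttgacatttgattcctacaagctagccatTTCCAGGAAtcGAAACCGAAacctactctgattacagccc

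The interferon response core was present in 5 of these 5 promoters, searched over the whole RefSeq promoter of 300 bases and not the window alone, against 8.56% of all 32851 promoters of 300 bases in the table. The gamma activated site was present in 4 of 5, against 8.3% of all promoters. These promoters also share longer runs, so they do not count as independent. The longest run was 61 bases for Irgm2 with Igtp and 27 for Tgtp1 with Tgtp2. For Irgm2 with Tgtp1 it was 20 bases and held the gamma activated site. In Irgm2, Igtp, Tgtp1 and Tgtp2 the response core began 11 bases after the start of the gamma activated site, at 64, 34, 77 and 70 bases before the start of transcription. This spacing, looked for after the windows had been read, was held by 8 promoters in all, or 0.0244%. They were these 4 genes, Gm12185, which is another immunity-related GTPase, Adar, an RNA-editing enzyme induced by interferon, Olfr382 and LOC115488470. Irgm1 had overlapping response cores at 30 and 24 bases before its start and no match to the gamma activated site in this window. A match describes the letters only, and was not tested as a binding site.

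**Figure D1:**
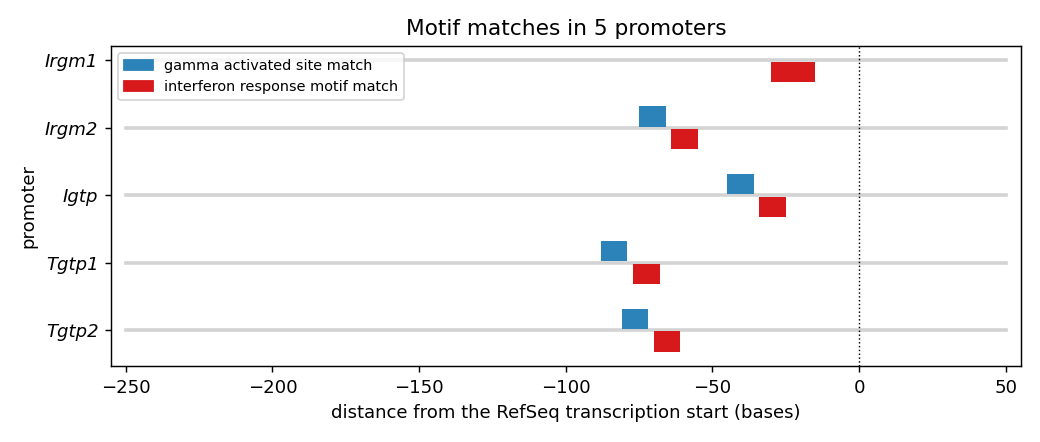
Positions of motif matches in the promoters of 5 immunity-related GTPase genes. The horizontal axis is the distance in bases from the RefSeq start of transcription (dotted line), grey lines are the promoters searched, blue boxes gamma activated site matches and red boxes interferon response matches, which overlap in Irgm1. In 4 of the 5 promoters a blue box lies 11 bases before a red one.

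Among the regulators, Irgm1 (chromosome 11, 48865245 to 48871420 on the minus strand) had the highest level in control tumours. It measured 55.1, 35.7, 22.0 and 41.6 FPKM in combination libraries 1 to 4, 102, 61.4, 40.8 and 76.3 FPKM in anti-PD-L1, 13.7, 13.7, 34.6 and 29.9 FPKM in exercise, and 20.7, 13.8, 21.4 and 24.1 FPKM in control. Every anti-PD-L1 library lay above every exercise and control library. In the combination, library 3 lay within the control range and the other 3 lay above it. Irgm2 (chromosome 11, 58214977 to 58222783, plus strand) measured 39.2, 13.2, 8.16 and 26.6 FPKM in the combination, 76.8, 34.9, 25.9 and 32.4 FPKM in anti-PD-L1, 4.2, 6.55, 21.2 and 16.03 FPKM in exercise, and 8.19, 4.26, 8.48 and 9.73 FPKM in control. Combination library 3 again lay inside the control range. Igtp, which lies beside Irgm2 (chromosome 11, 58199556 to 58207592, plus strand), measured 73.7, 22.4, 15.5 and 43.5 FPKM in the combination, 132, 56.1, 42.9 and 63.1 FPKM in anti-PD-L1, 6, 10.9, 35.6 and 23.2 FPKM in exercise, and 15.1, 5.42, 13.6 and 14.8 FPKM in control. Here all 4 combination libraries lay above the highest control, library 3 by a small margin.

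The tandem copies Tgtp1 (chromosome 11, 48985329 to 48992246, minus strand) and Tgtp2 (chromosome 11, 49057196 to 49064212, minus strand) share most of their sequence. Tgtp1 had the lowest mean of the 6 genes in each of the 4 groups. Tgtp1 measured 39.2, 7.66, 5.7 and 18.1 FPKM in the combination, 76.9, 34.3, 16.4 and 30.6 FPKM in anti-PD-L1, 1.24, 1.23, 19.3 and 5.65 FPKM in exercise, and 9.83, 1.19, 3.34 and 5.51 FPKM in control. Exercise libraries 1 and 2 and control 2 lay close to 1 FPKM, while exercise 3 lay above the lowest anti-PD-L1 library. Tgtp2 measured 49.2, 19.7, 13.2 and 34.6 FPKM in the combination, 95.8, 53.0, 24.1 and 41.2 FPKM in anti-PD-L1, 4.17, 6.42, 20.8 and 15.96 FPKM in exercise, and 12.6, 3.69, 12.7 and 12.6 FPKM in control. Its combination and control libraries did not overlap. In the GENCODE M21 transcripts, 79.4% of the 50-base words of Tgtp1 also occur in Tgtp2, and 85.8% of those of Tgtp2 occur in Tgtp1. How reads were shared between them is not given in the sources used here, so the split between these genes is uncertain. Igtp shares 11.8% of its words with Irgm2, and Irgm1 shares 0.31% with any other gene. The RefSeq span of Igtp overlaps the GENCODE span of Irgm2, and the RefSeq span of Tgtp1 overlaps the GENCODE span of Gm12185, on the same strand. Within RefSeq neither pair overlaps. On the opposite strand, the GENCODE span of Olfr56 overlaps the RefSeq spans of Tgtp1 and Tgtp2.

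Iigp1, the effector whose crystal structure served as the model of the family, lies apart from the others on chromosome 18 (60373616 to 60392634, plus strand). It measured 73.8, 18.4, 10.2 and 43.6 FPKM in the combination, 162, 59.4, 29.1 and 53.3 FPKM in anti-PD-L1, 2.65, 3.84, 24.2 and 15.3 FPKM in exercise, and 17.7, 5.68, 7.86 and 12.6 FPKM in control. Of its transcript words, 1.69% occur in any other gene. Its highest library was 61.2 times its lowest, close to the 64.6 times of Tgtp1, while that ratio was 26.0 for Tgtp2, 24.4 for Igtp, 18.3 for Irgm2 and 7.45 for Irgm1. The mean FPKM ran in the order anti-PD-L1, combination, exercise and control in all 6 genes, while on the log2(FPKM + 1) scale the mean of Iigp1 was 3.21 in exercise and 3.47 in control. Exercise and control, the neighbours at the low end, overlapped in all 6 genes, where 7.72% of all genes did not overlap in either direction. The combination and anti-PD-L1, the neighbours at the high end, also overlapped in all 6, where 2.24% of all genes did not.

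**Figure D2:**
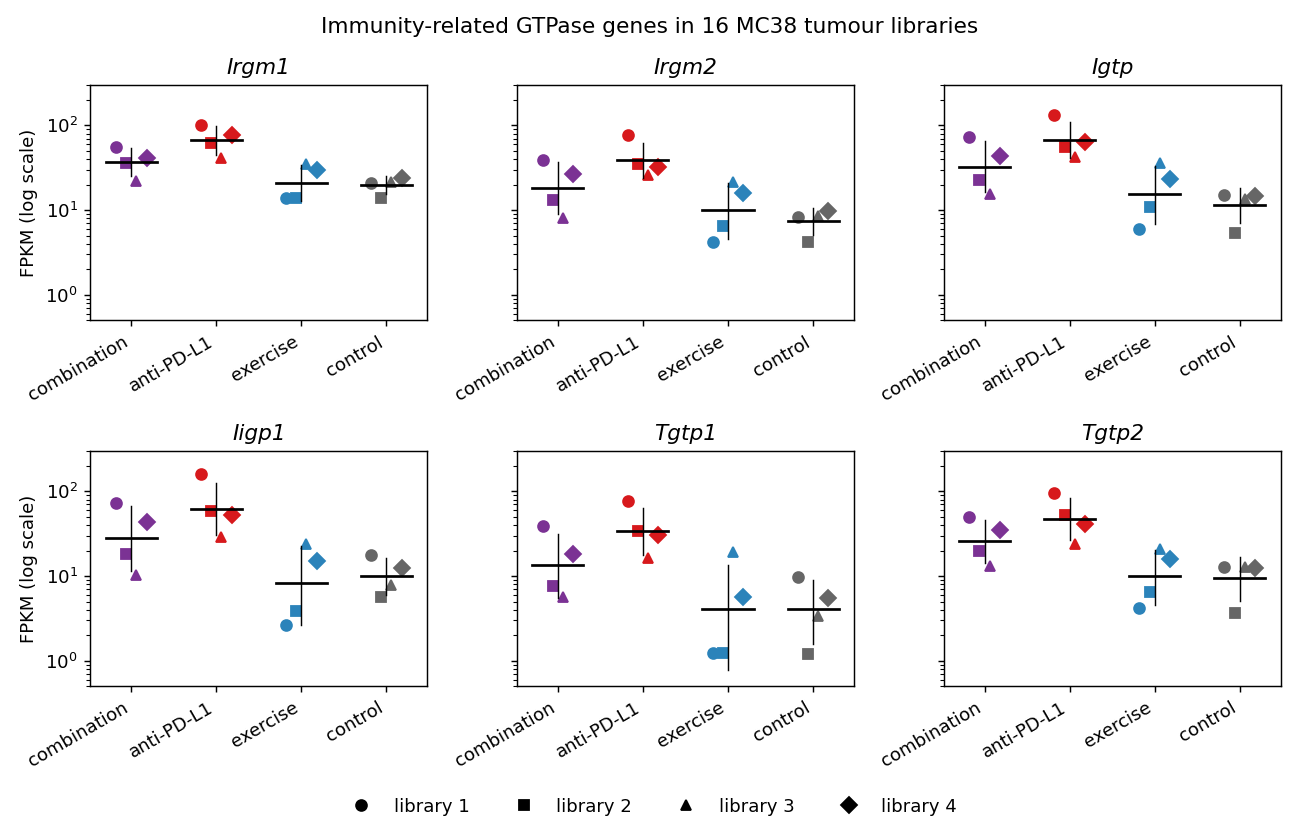
FPKM of the 6 genes, on a log axis shared by all panels, in combination, anti-PD-L1, exercise and control tumours. Each point is a library, with the marker shape giving its number, horizontal bars are means on the log2(FPKM + 1) scale and vertical lines span 1 SD either side (n = 4 each). The anti-PD-L1 points lie above the control points in all 6 panels.

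Tumours with antibody, with or without exercise, were compared with tumours without it over both activity levels. All 6 genes rose. Irgm1 averaged 54.4 ± 25.5 FPKM with antibody and 21.5 ± 7.82 FPKM without it (SD, n = 8 each), and Iigp1 averaged 56.2 ± 47.8 FPKM with antibody and 11.2 ± 7.53 FPKM without it. Their log2 fold changes, taken as log2(FPKM + 1), which understates changes of low values, were 1.24 ± 0.25 and 2.09 ± 0.50 (± standard error). Those of Irgm2, Igtp, Tgtp1 and Tgtp2 were 1.53 ± 0.36, 1.74 ± 0.39, 2.15 ± 0.53 and 1.76 ± 0.39, and the median of the 6 was 1.75, against -0.03 over all genes. In bulk tissue, more cells of a type and more RNA per cell cannot be told apart.

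The adjusted p in limma, with Benjamini-Hochberg adjustment over 11868 genes, was 0.0281 for Irgm1, 0.0374 for Tgtp2, 0.0397 for Igtp, 0.0462 for both Irgm2 and Iigp1, and 0.0491 for Tgtp1. Of all genes, 1.24% were called higher in this comparison. None of the 6 had all 8 libraries with antibody above all 8 without it, which held for 0.152% of all genes. With antibody, 7 of 8 libraries lay above the highest library without it for Irgm1, 4 of 8 for Tgtp1 and 6 of 8 for the other 4 genes. These adjusted p-values lay close to the threshold of 0.05 and the calls depended on single libraries. No gene passed without control 1, control 2, exercise 1, exercise 2, combination 1, combination 2 or anti-PD-L1 library 4, and 1 passed without exercise 4, combination 4 or anti-PD-L1 library 1 or 2. Without control 3 there were 3 genes, and without any other single library 6. The 1.24% of all genes belongs to the fit with all 16 libraries. The share called in each fit with a library left out is not given here. The log2 fold change of each gene stayed above 0 in all 26 alternative fits, between 1.14 and 1.36 for Irgm1 and between 1.82 and 2.51 for Tgtp1.

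Set against control alone, anti-PD-L1 tumours had higher values of all 6 genes, and in each gene the lowest anti-PD-L1 library lay above the highest control, which held for 3.57% of all genes. The ratio of mean FPKM was 3.51 for Irgm1, 5.55 for Irgm2, 6.02 for Igtp, 6.94 for Iigp1, 7.96 for Tgtp1 and 5.14 for Tgtp2. The log2 fold changes ran from 1.71 ± 0.35 for Irgm1 to 2.79 ± 0.75 for Tgtp1, with a median of 2.35 against -0.04 over all genes. With limma, 0 of 6 genes passed, at adjusted p from 0.0559 to 0.0835, where 0.16% of all genes were called higher. Before adjustment, the limma p was below 0.05 for 6 of 6, against 7.77% of all genes higher, and a two-sided exact permutation test gave 0.0286 for each gene, the smallest p that 4 libraries against 4 allow. The number of members past the adjusted threshold was 4 without control 4, 4 without exercise 1, 2 without combination 3 and 1 without anti-PD-L1 library 3. For these fits the share of all genes called is not given here.

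The antibody in exercised mice was read from the combination against exercise, which addresses the same question on another background. The log2 fold changes were 0.77 ± 0.35 for Irgm1, 0.82 ± 0.52 for Irgm2, 1.03 ± 0.56 for Igtp, 1.66 ± 0.70 for Iigp1, 1.51 ± 0.75 for Tgtp1 and 1.302 ± 0.548 for Tgtp2. With limma, 0 of 6 passed, at adjusted p from 0.321 to 0.503, where 0% of all genes were called higher. In limma 3 of 6 had an unadjusted p under 0.05, against 6.7% of all genes higher. In each gene exercise 3 lay above at least 1 combination library, and 0 of 6 genes had groups without overlap, against 3.21% of all genes. Combination against control, which shares libraries with the comparisons above, gave log2 fold changes from 0.87 ± 0.35 for Irgm1 to 1.51 ± 0.75 for Tgtp1. In limma 0 of 6 passed, at adjusted p from 0.6 to 0.635, where 0% of all genes were called higher. Before adjustment 4 of 6 had a limma p under 0.05, against 3.01% of all genes higher. Igtp and Tgtp2 did not overlap between these groups, 2 of 6 genes against 1.46% of all genes.

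**Figure D3:**
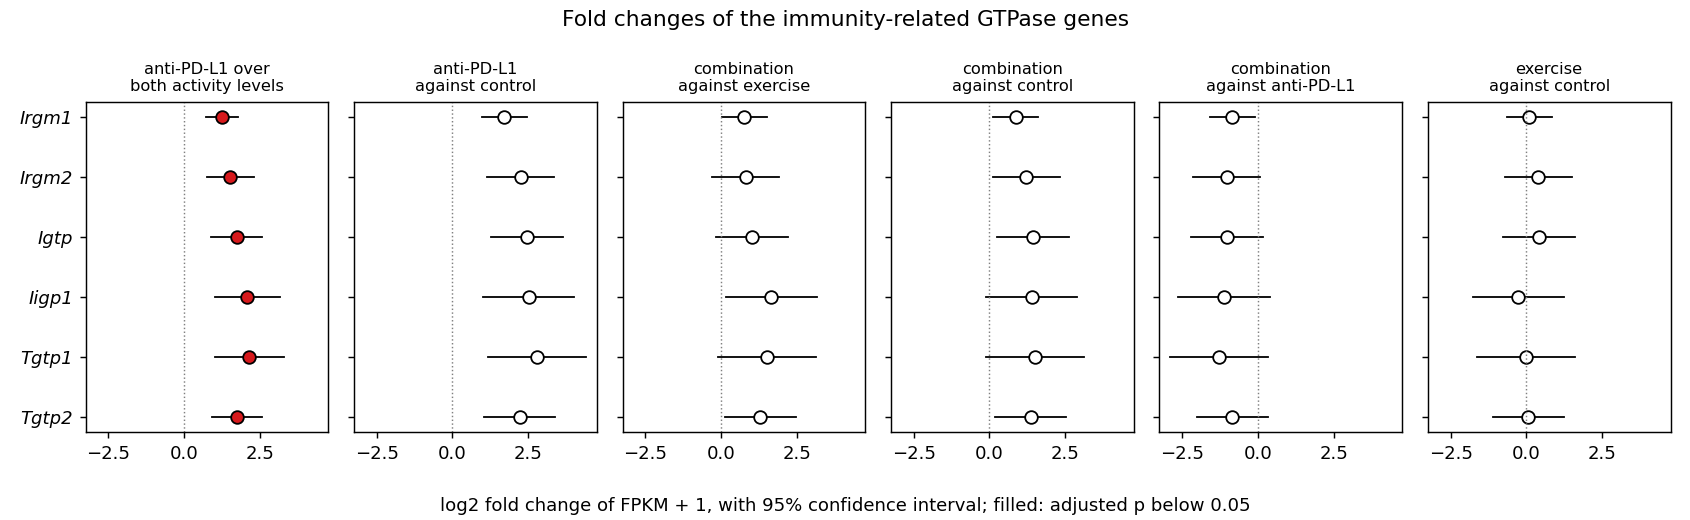
Log2 fold changes of FPKM + 1 for the 6 genes in 6 comparisons from 1 limma model over 16 libraries. Points are estimates, lines 95% confidence intervals, and filled points have an adjusted p under 0.05, which occurred in the comparison over both activity levels. All 6 estimates lie right of 0 in the 4 comparisons of antibody with no antibody, and left of 0 for the combination against anti-PD-L1.

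Exercise was read against control and, on top of the antibody, against anti-PD-L1. Against control the 6 log2 fold changes lay between -0.26 ± 0.70 for Iigp1 and 0.41 ± 0.56 for Igtp. Adjusted p ran from 0.695 to 1 in limma, where 0% of all genes were called higher. The share called lower is not given here. Before adjustment 0 of 6 had a p below 0.05, against 18% of all genes in either direction. The 95% confidence interval ran from -0.65 to 0.85 for Irgm1 and from -1.61 to 1.61 for Tgtp1. Changes in either direction within its interval were therefore not excluded for Tgtp1. The exercise libraries were spread widely. Exercise 1 and 2 held ranks 14 to 16 of 16 in all 6 genes, while exercise 3 held ranks 5 to 8. Without exercise 3 the log2 fold change was -0.66 for Tgtp1 and -0.75 for Iigp1, and without exercise 1 it was 0.82 for Igtp.

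Combination tumours had lower means of all 6 genes than anti-PD-L1 tumours. The ratio of mean FPKM lay between 0.446 for Tgtp1 and 0.55 for Irgm1, and the log2 fold changes between -1.27 ± 0.75 for Tgtp1 and -0.84 ± 0.35 for Irgm1. By limma 0 of 6 passed, each at an adjusted p of 0.968, where 0% of all genes were called higher. The share of all genes called lower is not given here. In limma 1 of 6, Irgm1, had an unadjusted p under 0.05, against 3.94% of all genes in either direction. Combination libraries 2 and 3 lay below the lowest anti-PD-L1 library in each gene, and libraries 1 and 4 did not. The interaction, which asks whether the antibody's change differed between exercised and other mice, was between -1.43 ± 0.73 for Irgm2 and -0.85 ± 1.00 for Iigp1. Its adjusted p lay between 0.402 and 0.682 in limma, where 0% of all genes were called with a value above 0. The share called with a value below 0 is not given here. Before adjustment 0 of 6 had a p below 0.05, against 13.1% of all genes in either direction, and the 95% interval for Irgm2 ran from -2.99 to 0.13. This term uses the same libraries as the comparisons above.

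The 6 genes varied together from library to library. Anti-PD-L1 library 1 was the highest of 16 in all 6 genes, and combination library 1 held ranks 2 to 4 in each. At the other end control 2, exercise 1 and exercise 2 held ranks 14 to 16 in each. Between pairs of members, Pearson's r over the 16 libraries lay between 0.955 for Irgm1 with Tgtp1 and 0.994 for Irgm2 with Igtp, and Spearman's rho between 0.906 and 0.979. After the group means were subtracted, r lay between 0.901 and 0.987, again lowest for Irgm1 with Tgtp1 and highest for Irgm2 with Igtp. These correlations are descriptions, since the libraries share groups and each library's scaling is common to all genes.

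The genes most like the family were ranked by Pearson's r of log2(FPKM + 1) with the mean z-score of the 6 members over the 16 libraries. Among the first 10 were Gbp6 at 0.987, Gbp4 at 0.985, Gm4841 at 0.983, Gbp3 at 0.977, Gbp5 at 0.973, Gm4951 at 0.972, Gbp2 at 0.967, Gm12250 at 0.965 and Gbp9 at 0.960. The 99th percentile over 11862 genes was 0.819. Of these, the 6 names beginning with Gbp are guanylate-binding proteins, larger interferon-induced GTPases, and Gm4841, Gm4951 and Gm12250 (Irgb10) are further immunity-related GTPases. After subtraction of the group means, 8 of the 10 genes stayed among the first 10, at r from 0.923 for Gm12250 to 0.969 for Gbp4, and Psmb8, an immunoproteasome subunit, at 0.930 and Sh2d6 at 0.932 joined them. Before that subtraction r was 0.958 for Psmb8 and 0.572 for Sh2d6, the latter below the 99th percentile. For antibody over both activity levels Psmb8 rose by 0.99 ± 0.14, while Sh2d6 had a value of 0.25 ± 0.34 and an adjusted p of 0.693 in limma.

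**Figure D4:**
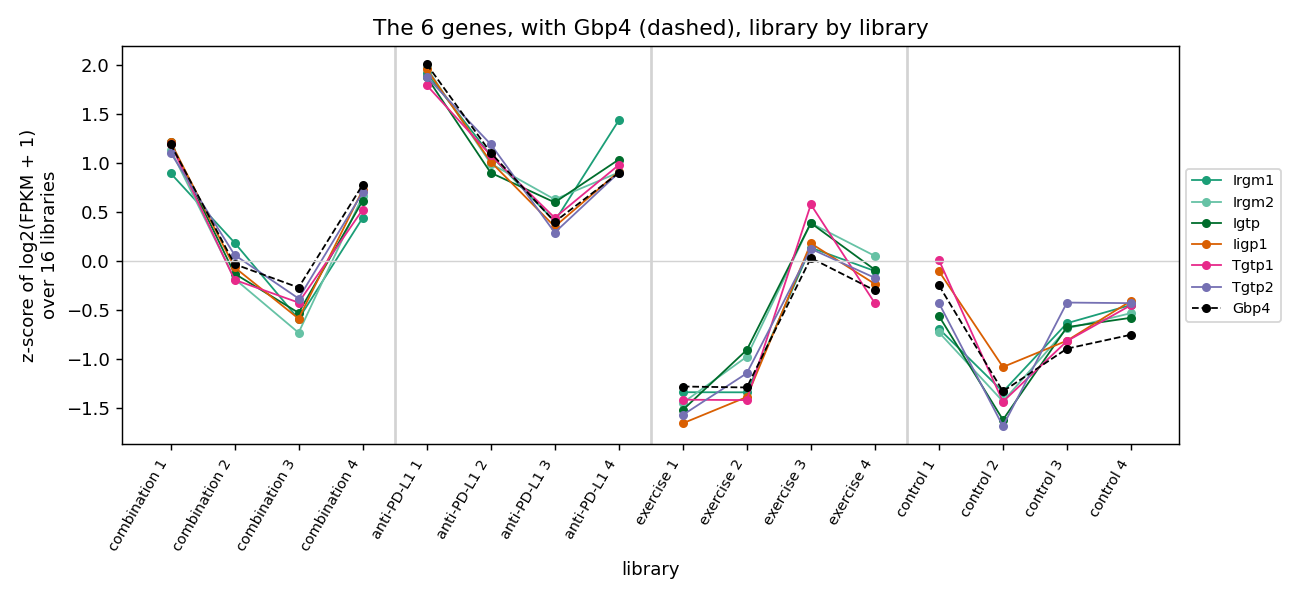
Z-scores of log2(FPKM + 1) over 16 libraries for the 6 genes (solid lines) and for Gbp4 (dashed line). The horizontal axis lists the libraries of the combination, anti-PD-L1, exercise and control groups, and lines only guide the eye, since libraries of a group have no order. All 7 genes are highest in anti-PD-L1 library 1, and the 6 family members are lowest in exercise 1, exercise 2 or control 2.

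The balance between members differed between libraries. Tgtp2 over Tgtp1, a ratio of FPKM within a library, had a median of 2.11 in the combination (1.26 to 2.57), 1.41 in anti-PD-L1 (1.25 to 1.54), 3.09 in exercise (1.08 to 5.22) and 2.70 in control (1.28 to 3.7994). It was lowest in exercise 3 and, among controls, in control 1. Since these genes share most of their transcript words, this ratio rests on how reads were divided. Iigp1 over Irgm1, an effector over a regulator, had a median of 0.782 in the combination (0.464 to 1.34), 0.840 in anti-PD-L1 (0.698 to 1.59), 0.396 in exercise (0.193 to 0.699) and 0.467 in control (0.366 to 0.853). Igtp over Irgm2, between neighbouring regulators, stayed between 1.27 and 1.95 in all 16 libraries. The groups overlapped in all 3 ratios, and no test was run on them.

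**Figure D5:**
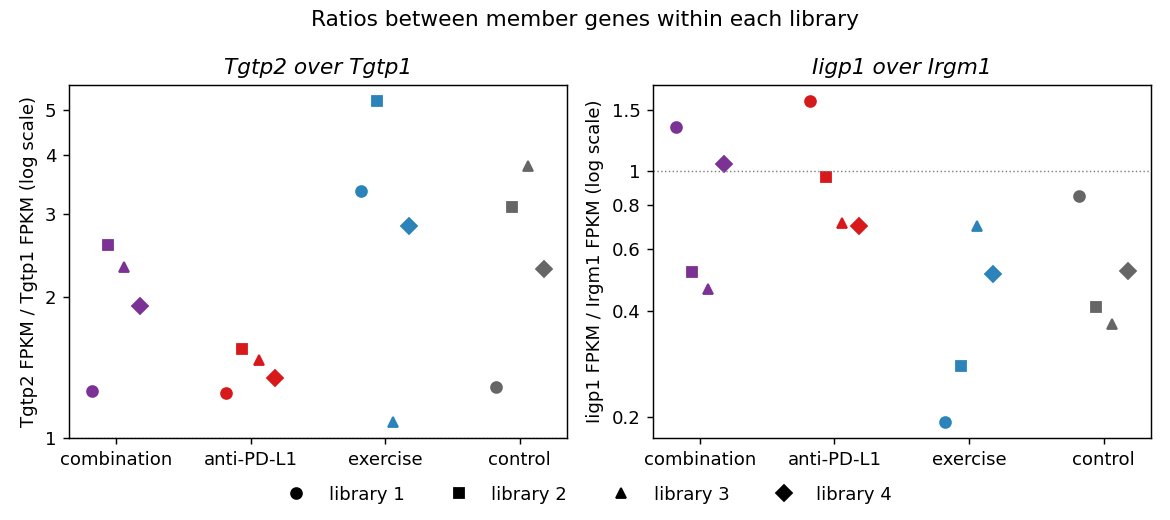
Ratios of FPKM between members within each library, on log axes, for combination, anti-PD-L1, exercise and control tumours. Each point is a library, with the marker shape giving its number. The 4 anti-PD-L1 libraries hold a Tgtp2 to Tgtp1 ratio between 1.25 and 1.54, whereas exercise libraries spread from 1.08 to 5.22.

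Other genes of the pathway were taken from lists and read in the comparison of antibody with no antibody over both activity levels. In that comparison 1.24% of all genes were called higher. Of 19 names of other immunity-related and giant interferon-induced GTPases, 13 were in the files and 12 were tested, of which 8 rose and 0 fell, with a median log2 fold change of 0.81 against -0.03 over all genes. Gvin1, a giant GTPase, rose by 1.84 ± 0.36, Gm4951 by 1.45 ± 0.34, Gm4841 by 1.44 ± 0.31 and F830016B08Rik by 0.62 ± 0.13. Ifi47 (Irgd), which lies near Tgtp2, rose by 0.86 ± 0.21, to 25.5 ± 9.25 FPKM in the combination and 37.4 ± 17.2 FPKM in anti-PD-L1, against 16.5 ± 5.83 FPKM in exercise and 15.6 ± 1.86 FPKM in control (SD, n = 4 each). Irgq, a divergent member of the family, had a value of -0.05 ± 0.06. Of the guanylate-binding proteins, 9 of 9 tested rose, with a median of 1.47, among them Gbp4 by 1.85 ± 0.35, Gbp2 by 1.84 ± 0.31, Gbp9 by 1.46 ± 0.26 and Gbp10 by 1.14 ± 0.23. Adar, which shares the promoter spacing, had a value of 0.20 ± 0.11 and an adjusted p of 0.279 in limma.

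Of the 16 interferon gamma signalling genes tested, 4 rose and 0 fell, where 1.24% of all genes were called higher. Their median was 0.22, against -0.03 over all genes. Among them Irf1 rose by 0.69 ± 0.16, Irf9, an interferon regulatory factor, by 0.66 ± 0.16, and Nlrc5, the activator of MHC class I genes, by 0.73 ± 0.14. The receptor chains Ifngr1 and Ifngr2 had values of -0.06 ± 0.13 and -0.18 ± 0.10, and the kinases Jak1 and Jak2 of -0.05 ± 0.07 and 0.22 ± 0.08. Of 14 genes of autophagy conjugation and vacuole ubiquitin, a machinery that places these GTPases on membranes, 0 passed in limma, and 4 had the smallest p. They were Trim21 at 0.44 ± 0.16, Atg12 at 0.17 ± 0.07, Sqstm1 at 0.27 ± 0.12 and Atg7 at -0.13 ± 0.06, with a median of 0.07 over the list.

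These list counts depended on single libraries as well. The share of all genes called in each fit with libraries left out is not given here. The guanylate-binding protein count was 1 without exercise 2, 2 without control 2, 3 without combination 1 and 5 without control 1, exercise 1 or anti-PD-L1 library 2 or 4. The count of other immunity-related GTPases was 10 without control 4, 9 without combination 3 and 8 without anti-PD-L1 library 3, and 0 to 5 without any other library. That of interferon gamma signalling was 6 without anti-PD-L1 library 3, 4 without control 4, exercise 3 or combination 3, and 0 to 2 without any other library. Without controls 1 and 2 together, which stood apart on the principal component, the counts were 0 in each list, with medians of 1.36, 0.70 and 0.28.

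Ifng itself, the gene of interferon gamma, was below the level needed for testing. It measured 0.5, 0.25, 0.21 and 0.39 FPKM in the combination, 1.28, 0.21, 0.33 and 0.17 FPKM in anti-PD-L1, 0, 0, 0.38 and 0.09 FPKM in exercise, and 0.13, 0.04, 0.04 and 0 FPKM in control. Combination and anti-PD-L1 libraries lay above all controls, with a two-sided exact permutation p of 0.0286 for each, the smallest possible, and 0.0715 after adjustment over 5 comparisons. The library with the highest Ifng, anti-PD-L1 library 1, was the one with the highest family values. Exercise 3, the highest of its group in Ifng, was also the highest of its group in all 6 members. Within anti-PD-L1, libraries 3 and 4 ran the other way. Library 4 had the lowest Ifng of that group, 0.17 FPKM, and held ranks 2 to 4 in the members. Library 3, at 0.33 FPKM, held ranks 6 to 7, the lowest family values of that group. A link between Ifng and the family was not tested. Of the genes of cytotoxic cells, Nkg7 rose by 0.91 ± 0.17 and Gzmb, granzyme B, by 1.34 ± 0.29 over both activity levels, while Prf1, perforin, had a value of 1.17 ± 0.33 and Il18 of 0.14 ± 0.15. That list had 4 of 14 genes tested and 2 risen, where 1.24% of all genes were called higher. Its median log2 fold change was 1.04, against -0.03 over all genes. The count of the list was 0 without control 2 or exercise 2, 3 without combination 3, and 1 or 2 without any other library. Under those fits the share of all genes called is not given here.

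Markers of other cell types are given as sums, on which no test was run. The sums are per group for T cells and for monocytes and macrophages, and over all libraries for the rest. The 5 T cell markers found, of 6, summed to 3.07 to 5.21 FPKM in the combination, 2.03 to 9.02 in anti-PD-L1, 2.06 to 2.54 in exercise and 1.20 to 3.02 in control, and none was at 0 throughout a group. The 9 monocyte and macrophage markers summed to 415 to 1243 FPKM in the combination, 356 to 755 in anti-PD-L1, 550 to 998 in exercise and 469 to 1908 in control. Of these 9 genes, 0 passed in limma over both activity levels and 1 had a value above 0, with a median of -0.76. The 4 natural killer cell markers summed to 1.62 to 4.20 FPKM over all libraries, most of it Eomes at 1.36 to 3.54 FPKM. Summed neutrophil markers lay between 12.6 and 84.1 FPKM over all libraries, dendritic cell markers between 2.30 and 4.32, B cell markers between 0.15 and 1.10, endothelial markers between 17.4 and 93.0, fibroblast markers between 219 and 1086, keratinocyte markers between 9.95 and 86.2, and muscle markers between 0.21 and 206. The 206 FPKM of muscle markers stood in control 2, with Acta1, skeletal muscle actin, at 169.93 FPKM, and the next library had 5.68 FPKM. Control 2 was also the library farthest out on the first principal component and among the lowest in all 6 members. Without it 0 of 6 members passed over both activity levels, as also held without several other single libraries named above. Over both activity levels 1 of 5 neutrophil markers rose, Mmp8 by 1.03 ± 0.20, where 1.24% of all genes were called higher. The other 4 had values below 0, and the median of the 5 was -0.30, against -0.03 over all genes. The part of all these cells in the values of the GTPase genes was not tested.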

How the data were processed

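RNA expression was measured in 16 tumour libraries. The authors deposited FPKM with 2 decimals, per the file headers, in 18480 entries per library. The submitters' processing notes list HISAT, Bowtie2 and GRCm38.p6 without saying what each was used for. What program computed FPKM, and with which library kit and strand setting, is not given in the sources used here. In 1000 genes with low values, 27.8% of values came within 0.15 of being a whole number times the smallest value of their gene, so whole reads were not recovered and the depth is unknown.

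Values were taken as log2(FPKM + 1). The filter was 1 FPKM or more in 4 or more libraries, which 11868 genes passed, among them all 6 members. One model was fitted with limma 3.58.1 in R 4.3.3, with group as its only term and with trend and robust settings. Its 7 contrasts were adjusted by Benjamini-Hochberg at 0.05. The script was tested on simulated data. No libraries held identical values. Correlations across genes lay between 0.957 and 0.989 within groups.

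Coordinates, names and promoters are from RefSeq on GRCm38.p6, in which 17960 entries have a symbol, and transcript words from GENCODE M21 on GRCm38. Permutation tests were run in scipy 1.17.1 and figures drawn with matplotlib 3.10.9. The members, lists, named genes and alternatives were chosen with earlier results of these data known. Named genes were the 6 members, the 10 most alike, and up to 4 of each list with the smallest p, with Ifng, Irf1 and Ifi47, and 1 gene that this rule names is not reported here. Marker lists also covered neutrophils, dendritic cells, B cells, endothelium, fibroblasts, keratinocytes and muscle. Alternatives were other limma settings, scalings, filters, pseudocounts of 0.1 and 0.01, a fit to each pair of groups alone, a block for the replicate number, library weights and left-out libraries. The counts for the lists under each alternative were added after the data were seen.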

Additional observations from a re-analysis of the deposited data

Results flagged for a closer look

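In control 2 a member lay far below the other controls in 2 of the 24 sets of a gene and a group examined, where chance gives about 1 in 20. That is not far above the chance share. Both sets hold the same low library and the members varied together, so they do not count as independent. Igtp measured 5.42 FPKM there, and the next control 13.6 FPKM. Tgtp2 measured 3.69 FPKM there, and the next control 12.6 FPKM. Control 2 held ranks 14 to 16 of 16 in all 6 members, and lay farthest from 0 on the first principal component. Without control 2, Igtp kept a fold change above 0 for antibody over both activity levels but 0 of 6 members passed in limma. That count was also 0 without several other single libraries, and exercise 1 and 2 also held ranks 14 to 16.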

How the results depend on the processing

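For the 6 members, antibody over both activity levels gave a log2 fold change above 0 in all 156 alternative values, of which 70 passed. The count of 6 was 1 with no filter on low values, 1 with the replicate block and 0 without controls 1 and 2, and it lay between 0 and 6 when single libraries were left out. For anti-PD-L1 against control the count of 0 was 3 with quantile normalization, 1 with median centring, 2 with only the groups compared and 4 with library weights, and between 0 and 4 when single libraries were left out. For the other 5 comparisons the count was 0 in each alternative. These counts stand without the share of all genes called in the same fit, which is not given here.

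Directions reversed in exercise against control alone, where no value passed. The Tgtp1 log2 fold change, exercise against control, was -0.0792 and -0.0921 with pseudocounts of 0.1 and 0.01, Iigp1 at 0.0182 with library weights, and Irgm1, Tgtp1 and Tgtp2 at -0.10, -0.0614 and -0.32 without controls 1 and 2. When single libraries were left out, Irgm1 lay between -0.13 and 0.29, Iigp1 between -0.75 and 0.18, Tgtp1 between -0.66 and 0.40 and Tgtp2 between -0.32 and 0.42. The cause was not tested. Libraries with the same replicate number did not deviate together, with correlations between -0.62 and 0.344 over 24 pairs, and 1 of 16 libraries was most like one of its own number, so the block has no pairing behind it. No scaling moved the median of all genes by more than 0.1. The unknown depth limits the low values of Tgtp1 and Ifng.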
